A study of Caenorhabditis elegans with 2 samples.

Results

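The genes described here encode the protein-making machinery of Caenorhabditis elegans: 78 ribosomal protein genes (47 rpl- genes of the large subunit and 31 rps- genes of the small subunit) and 32 aminoacyl-tRNA synthetase genes. They were chosen by name alone, as protein-coding genes called rps- or rpl- with a number, or called by an amino acid letter followed by ars- and a number. They make up 110 of 19973 nuclear protein-coding genes in the Ensembl annotation of assembly WBcel235 (ce11), and the other 19863 genes are the background. The RefSeq product names fitted the gene name for 74 of the 78 ribosomal protein genes and for all 32 synthetase genes. The exceptions were rpl-24.2, whose product is named as a putative ribosome biogenesis protein, and rpl-42, rps-10 and rps-30, which are named after a domain.

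The study mapped the zinc-finger transcription factor ODD-2, a relative of the fly protein Odd-skipped, by chromatin immunoprecipitation and sequencing. There was 1 group of 2 biological replicates: whole late embryos (hermaphrodite; age given as unknown) of the transgenic line OP405, genotype unc-119(tm4063) III; wgIs405, in which ODD-2 carries GFP and FLAG at its C-terminus. The antibody was directed against GFP, the chromatin was sonicated, and both replicates share every allele named. The integrated transgene makes OP405 a model of tagged ODD-2 from that insertion, and no untagged line was analysed here. For each replicate and for the pooled data, 30000 candidate regions were deposited, each with a summit and the authors' signal, made with a control file. A further 260 regions passed the authors' irreproducible discovery rate threshold and are called IDR peaks. The pooled candidate list is labelled as peaks and background, the input to that step. A candidate region therefore need not be a site of binding. Signals ran from 24.6 to 772 in the pooled file, from 13.2 to 371 in replicate 1 and from 12.7 to 458 in replicate 2, so ranks within a file (1 is the strongest of 30000) are given beside the signals. The files hold no read numbers, and the sequencing depth is unknown.

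Ribosomes carry a large and a small subunit, each built from ribosomal RNA and many small proteins that are needed in matched amounts. Aminoacyl-tRNA synthetases charge each tRNA with its amino acid, in the cytoplasm or inside mitochondria. Both families are used in nearly all cells, and ribosomal protein mRNAs are among the most abundant. In C. elegans many of these mRNAs receive a spliced leader, and transcription may then begin upstream of the annotated 5' end. A gene was counted when the summit of a region lay from 1000 bp upstream to 200 bp downstream of any annotated 5' end of the gene.

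Among the 110 genes, 5 had an IDR peak in this window: ears-2, rps-28, rpl-3, rpl-15 and rpl-30. Among them, 4 are ribosomal protein genes (5.13% of 78, 95% exact binomial interval 1.41 to 12.6) and 1 is a synthetase gene (3.12% of 32, interval 0.0791 to 16.2), beside 0.8% of the other nuclear protein-coding genes. In all 5 the IDR peak was the strongest pooled region of the window. With counts this small, a single gene moves the share by more than the background rate itself. Intervals here and below cover the counting of genes only. Genes that share a region are not independent, so no test over genes was run.

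Sequences around the summits are given here for the 6 members with the highest pooled signals on chromosomes II, III, IV, V and X, because they are the DNA under those signals. Each is 201 bases of ce11, centred on the pooled summit and written 5' to 3' along the strand of the gene. Capitals mark the word GCGCAC, the word CGCACA or the word CCGCCC on either strand, and the first 2 of these words can overlap each other. The positions are chrIV:390376-390576 for ears-2, chrIV:1659102-1659302 for rps-28, chrIII:3867473-3867673 for rpl-3, chrIV:654806-655006 for rpl-15, chrII:11694594-11694794 for tars-1 and chrIV:4749964-4750164 for rpl-20. Of these genes, rps-28 and rpl-3 lie on the plus strand and the others on the minus strand.
ears-2: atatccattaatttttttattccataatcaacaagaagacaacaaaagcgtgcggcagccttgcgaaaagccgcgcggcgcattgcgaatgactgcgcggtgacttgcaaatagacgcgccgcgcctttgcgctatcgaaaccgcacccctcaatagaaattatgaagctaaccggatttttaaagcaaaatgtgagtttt
rps-28: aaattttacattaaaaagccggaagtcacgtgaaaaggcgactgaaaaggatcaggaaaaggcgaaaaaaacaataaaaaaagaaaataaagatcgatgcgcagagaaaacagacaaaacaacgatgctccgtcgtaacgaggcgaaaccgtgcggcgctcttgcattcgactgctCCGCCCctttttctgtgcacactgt
rpl-3: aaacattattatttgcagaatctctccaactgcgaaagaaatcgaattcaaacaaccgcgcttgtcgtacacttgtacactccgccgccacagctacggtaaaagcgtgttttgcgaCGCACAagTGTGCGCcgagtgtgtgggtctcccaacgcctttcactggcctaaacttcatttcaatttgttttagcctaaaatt
rpl-15: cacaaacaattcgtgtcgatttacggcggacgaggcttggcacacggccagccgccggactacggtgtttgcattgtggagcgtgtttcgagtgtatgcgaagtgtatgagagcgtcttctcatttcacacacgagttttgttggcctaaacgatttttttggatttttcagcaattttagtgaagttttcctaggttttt
tars-1: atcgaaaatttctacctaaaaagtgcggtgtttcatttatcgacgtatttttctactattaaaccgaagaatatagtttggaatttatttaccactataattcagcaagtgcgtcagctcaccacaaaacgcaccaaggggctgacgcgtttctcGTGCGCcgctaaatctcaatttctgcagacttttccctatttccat
rpl-20: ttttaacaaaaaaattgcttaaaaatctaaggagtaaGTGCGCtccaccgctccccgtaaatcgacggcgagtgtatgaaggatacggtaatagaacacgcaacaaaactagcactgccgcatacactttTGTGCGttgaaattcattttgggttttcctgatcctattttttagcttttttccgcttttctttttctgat

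In these windows the word CCGCCC was found at rps-28, GCGCAC at rpl-3, rpl-20 and tars-1, and CGCACA at rpl-3 and rpl-20. The rpl-3 window held CGCACA in both orientations a few bases apart. The windows of ears-2, which had the strongest region of all the genes described here, and of rpl-15 held no copy of the 3 words. The window of rpl-30, whose sequence is not printed and whose signal was above those of tars-1 and rpl-20, held none of the 3 either.

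The synthetase gene ears-2 had the highest signal of the 110 genes. Its product is named in RefSeq as a mitochondrial glutamyl-tRNA synthetase. The peak at ears-2 (WBGene00001338; IV, 390311 to 390640, minus strand) had its summit 8 bp upstream of the annotated 5' end. Its signal was 92.1 in replicate 1 (rank 35), 112 in replicate 2 (rank 26) and 204 in the pooled file (rank 30). The replicates therefore placed it at nearly the same height in their lists. The next synthetase genes were far lower. At tars-1, whose product is named as a cytoplasmic threonyl-tRNA synthetase, the signal was 26.1 in replicate 1 (rank 1349), 28.1 in replicate 2 (rank 676) and 59.3 pooled (rank 293). At gars-1, the glycyl-tRNA synthetase gene, it was 18.3 in replicate 1 (rank 10316), 27.5 in replicate 2 (rank 789) and 49.2 pooled (rank 828). In both genes the summit lay inside the gene, upstream of the start of a shorter transcript only: 401 bp upstream at tars-1 and 725 bp upstream at gars-1. At tars-1 the nearest 5' end was that of kel-1, a kelch-repeat protein gene, at 134 bp. At gars-1 the nearest was another 5' end of the gene itself, 625 bp upstream of the summit.

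Of the ribosomal protein genes, rps-28 and rpl-3 had the strongest regions, at about the same pooled signal. The gene rps-28 (WBGene00004497; IV, 1659691 to 1659997) encodes a small-subunit protein. Its peak, 489 bp upstream of the 5' end, had a signal of 50.4 in replicate 1 (rank 102), 41.1 in replicate 2 (rank 150) and 91.7 pooled (rank 123). The gene rpl-3 (WBGene00004414; III, 3867854 to 3869587) encodes a large-subunit protein that reaches close to the peptidyl transferase centre. Its peak, 281 bp upstream, had a signal of 35.7 in replicate 1 (rank 220), 49.5 in replicate 2 (rank 103) and 90.2 pooled (rank 126). The replicates thus put these genes in opposite order, while both peaks stayed among the strongest regions of each. At rpl-15 (WBGene00004427; IV, 653480 to 654576), another large-subunit gene, the peak lay 330 bp upstream. Its signal was 32 in replicate 1 (rank 347), 30.9 in replicate 2 (rank 388) and 67.9 pooled (rank 210). In signal and rank this is the closest match between replicates among the ribosomal protein genes with an IDR peak. In position it is not. The rpl-15 summits lay 54 bp (replicate 1) and 46 bp (replicate 2) from the pooled summit, farther than at rps-28, rpl-3 and rpl-30.

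The peaks of ears-2, rps-28 and rpl-15 also lay in the window of another protein-coding gene (uncp-18, Y41D4B.4 and K11H12.8). Their nearest 5' end was that of the member itself. Among the IDR peaks, only that of rpl-3 lay in no other window. The peak counted for rpl-30 (WBGene00004444), a large-subunit gene, was shared with a neighbour whose 5' end was nearer. Its summit lay 385 bp upstream of rpl-30 and 7 bp downstream of a 5' end of pab-1, the gene of a poly(A)-binding protein. The signal there was 24.8 in replicate 1 (rank 1971), 36.1 in replicate 2 (rank 195) and 65.4 pooled (rank 221). Replicate 2 ranked this peak far higher than replicate 1 did. A region between 2 starts cannot be given to 1 of the genes from these files. When each region was counted only for the gene with the nearest 5' end, rpl-30 left the list and 3 ribosomal protein genes kept an IDR peak, beside 0.534% of other genes.

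**Figure D1:**
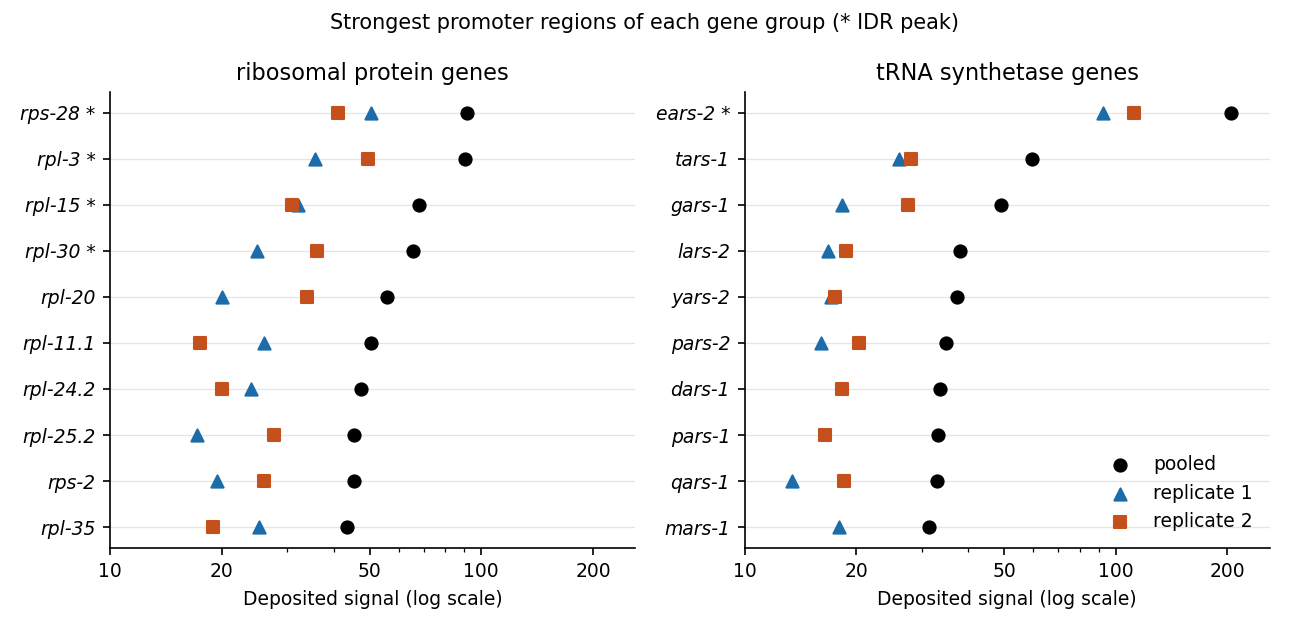
Deposited signal (log axis) of the strongest pooled region in the window of the 10 ribosomal protein genes and the 10 synthetase genes with the highest pooled signal, with the replicate regions whose summit lay within 100 bp; an asterisk marks an IDR peak, and files have different scales. The point of ears-2 stands far to the right of the other synthetase genes, at 204 pooled, and no replicate 1 region matched dars-1 or pars-1 and no replicate 2 region matched mars-1.

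Below the IDR peaks the ribosomal protein genes went on with rpl-20, rpl-11.1, rpl-24.2, rpl-25.2, rps-2 and rpl-35. At rpl-20, a large-subunit gene, the signal was 20 in replicate 1 (rank 6868), 33.9 in replicate 2 (rank 242) and 55.7 pooled (rank 386). The summit lay 286 bp upstream of rpl-20 and nearer, at 176 bp, to the start of Y17G9B.5. At rpl-11.1, one of a pair of genes for the same large-subunit protein, the signal was 26 in replicate 1 (rank 1402), 17.5 in replicate 2 (rank 10992) and 50.4 pooled (rank 698). The summit lay 959 bp upstream of rpl-11.1 and nearer, at 384 bp, to the start of T22F3.2. These genes show the spread between replicates: rpl-20 was strong only in replicate 2, and rpl-11.1 was stronger in replicate 1. The other 4 had pooled signals from 43.5 at rpl-35 to 47.3 at rpl-24.2. The next genes in order were rps-26 (43.1), rps-6 (41.2), rpl-41.1 (41), rps-4 (40.9) and rps-18 (40.4), with ranks from 2211 to 3508. None of these 5 stood high in both replicates. At rps-26 the ranks at this summit were 24984 in replicate 1 and 453 in replicate 2, at rps-18 only replicate 2 had a region (rank 443), and at rps-6, rpl-41.1 and rps-4 only replicate 1 had one within 100 bp of the summit. The rps-6 summit lay 621 bp upstream and nearer, at 90 bp, to a 5' end of usp-3. That of rps-4 lay 1000 bp upstream, at the edge of the window.

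After gars-1 the synthetase genes followed well down the pooled list, from rank 5087 at lars-2. The pooled signal was 38.1 at lars-2, 37.4 at yars-2, 34.9 at pars-2, 33.7 at dars-1, 33.2 at pars-1, 33 at qars-1 and 31.3 at mars-1. These are genes for the leucine, tyrosine, proline, aspartate, glutamine and methionine enzymes, with pars-1 and pars-2 both for proline. They were followed by fars-1 (30.2), wars-1 (29.7), iars-2 (28.7), ears-1 (28.7) and cars-1 (27.5). The ears-1 region, rank 19087 of the pooled file, had no counterpart within 100 bp in either replicate. Hence ears-1, whose product is named as glutamate--tRNA ligase, lay in the weaker part of the pooled list, and ears-2, for the same amino acid, near its top.

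Candidate regions of any strength were found at the majority of these genes. In the pooled file 50 of 78 ribosomal protein genes (64.1%, interval 52.4 to 74.7) and 18 of 32 synthetase genes (56.2%, interval 37.7 to 73.6) had one, beside 41.3% of the other nuclear protein-coding genes. Any annotated 5' end counted, and synthetase genes had a mean of 1.94, beside 1.22 for ribosomal protein genes and 1.47 for other genes. With the outermost 5' end only, the shares were 64.1% for ribosomal protein genes and 46.9% for synthetase genes, beside 37.5%. With any 5' end, small-subunit genes had a pooled region in 23 of 31 cases (74.2%, interval 55.4 to 88.1) and large-subunit genes in 27 of 47 (57.4%, interval 42.2 to 71.7), and these intervals overlap. The order was reversed for summits of both replicates within 100 bp (19.4% of small-subunit and 27.7% of large-subunit genes). It was also reversed for the strongest 1000 pooled regions (3.23% and 10.6%) and for IDR peaks (3.23% and 6.38%). These intervals overlap too. In replicate 1 the counts were 40 ribosomal protein genes (51.3%) and 19 synthetase genes (59.4%), beside 40.8% of other genes. In replicate 2 they were 53 (67.9%) and 18 (56.2%), beside the same 40.8%. Replicate 2 thus held more ribosomal protein genes than replicate 1, while the background share was equal. Among the ribosomal protein genes 24 had a region in replicate 2 only (30.8%, beside 16.7% of other genes), 11 in replicate 1 only (14.1%, beside 16.7%), and 29 in both at any distance (37.2%, beside 24.2%). For the synthetase genes the counts were 5 (15.6%), 6 (18.8%) and 13 (40.6%).

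The share was smaller where both replicates had to place a summit within 100 bp of each other. This held for 19 ribosomal protein genes (24.4%, interval 15.3 to 35.4) and 9 synthetase genes (28.1%, interval 13.7 to 46.7), beside 14.9% of other genes. With the outermost 5' end only, it held for 24.4% of ribosomal protein genes and 18.8% of synthetase genes, beside 13%. The strongest pooled region of a ribosomal protein gene had a counterpart in both replicates in 18 of 50 genes, in replicate 2 only in 22 (44%) and in replicate 1 only in 10 (20%). For the synthetase genes these counts were 9, 5 (27.8%) and 3 (16.7%) of 18. Of the other genes with a region, 27.8% had a counterpart in replicate 2 only and 28.2% in replicate 1 only. A counterpart in both replicates was present at 36% of the ribosomal protein genes and 50% of the synthetase genes with a region, beside 35.7% of other genes. A counterpart was missing from both replicates in 0 of 50 ribosomal protein genes and 1 of 18 synthetase genes, beside 8.37% of other genes.

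Regions among the strongest 1000 of the pooled file, with a signal of 48 or more, were at 6 ribosomal protein genes (7.69%, interval 2.88 to 16) and 3 synthetase genes (9.38%, interval 1.98 to 25), beside 2.4% of other genes. These 9 genes are ears-2, rps-28, rpl-3, rpl-15, rpl-30, tars-1, rpl-20, rpl-11.1 and gars-1. The 6 ribosomal protein genes became 9 with the strongest 1000 of replicate 2 (11.5%, beside 2.33% of other genes) and 3 with those of replicate 1 (3.85%, beside 2.36%). The 3 synthetase genes were 3 in replicate 2 (9.38%) and 1 in replicate 1 (3.12%). In replicate 1 the shares rest on 3 genes and 1 gene, too few to say how far they lie from that of other genes. Only rps-28, rpl-3, rpl-15 and ears-2 had a region among the strongest 1000 of each replicate, 4 of the 110 genes, beside 0.816% of the other genes.

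**Figure D2:**
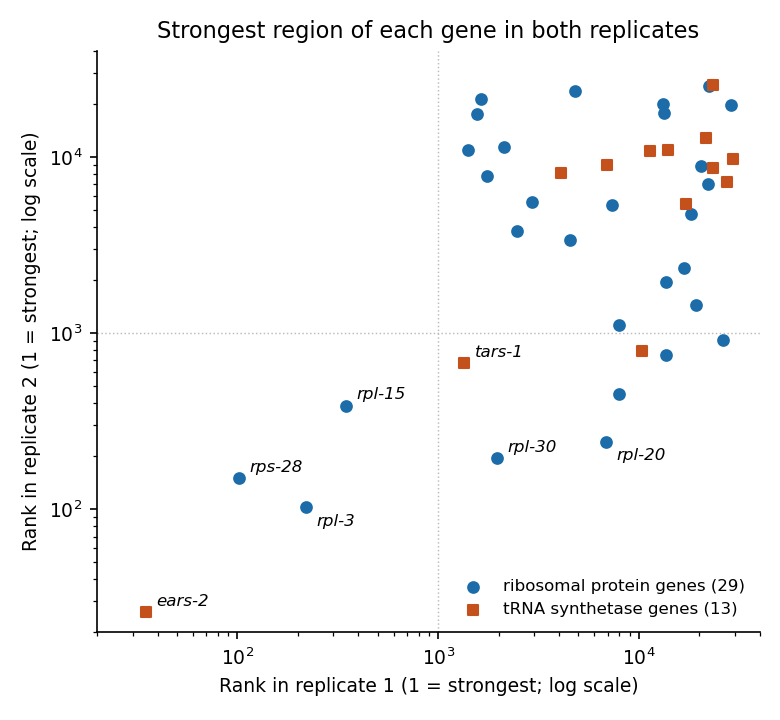
Rank of the strongest region in the window in replicate 1 (x axis) and replicate 2 (y axis), both on log axes with 1 the strongest of 30000, for the 29 ribosomal protein genes and 13 synthetase genes with a region in both; the 2 regions of a gene need not be the same place. ears-2, rps-28, rpl-3 and rpl-15 lie below rank 1000 (dotted lines) on both axes, and every other gene plotted lies above rank 1000 on at least 1 axis.

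Across the 29 ribosomal protein genes with a region in both replicates, Spearman's rho between the replicate signals was 0.22. It was 0.52 across 13 synthetase genes and 0.17 across 4797 other genes. These values describe genes that share the same libraries, and no p is given.

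Most other parts of the translation machinery, and a housekeeping complex outside it, had shares like those of the genes described here. A pooled region was at 22 of 36 initiation factor genes (61.1%), 6 of 9 elongation and release factor genes (66.7%), 40 of 70 genes of the mitochondrial ribosome (57.1%), 15 of 29 ribosome assembly genes (51.7%) and 18 of 33 proteasome genes (54.5%). The ribosomal protein and synthetase shares of 64.1% and 56.2% lie within the intervals of each of these lists. The genes of the vacuolar ATPase, a proton pump, had a region in 7 of 21 cases (33.3%), and the interval of 14.6 to 57 overlaps those of both member groups. Of 6 genes for other ribosome parts (stalk proteins, ubiquitin fusions and RACK1), which the naming rule leaves out, 2 had a pooled region (33.3%, interval 4.33 to 77.7). In replicate 1, 0 of these 6 had a region. The count was also 0 for summits of both replicates within 100 bp, for the strongest 1000 pooled regions and for IDR peaks. With 6 genes, each count of 0 allows a share of up to 50%. The strongest genes of these lists were krr-1 (pooled signal 182), a ribosome assembly gene, erfa-3 (111), a translation termination gene, and iff-2 (79.1), an initiation factor gene. IDR peaks also lay at eef-1A.1 (66.4), the elongation factor 1A gene, at mrpl-23 (62.9) and mrpl-39 (62.6) of the mitochondrial ribosome, and at rpn-7 (73.2) and rpn-6.1 (68.4) of the proteasome. The mrpl-23 region was also near the short RNA gene T08B2.13. No synthetase or ribosomal protein gene other than ears-2 came above krr-1 or erfa-3.

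**Figure D3:**
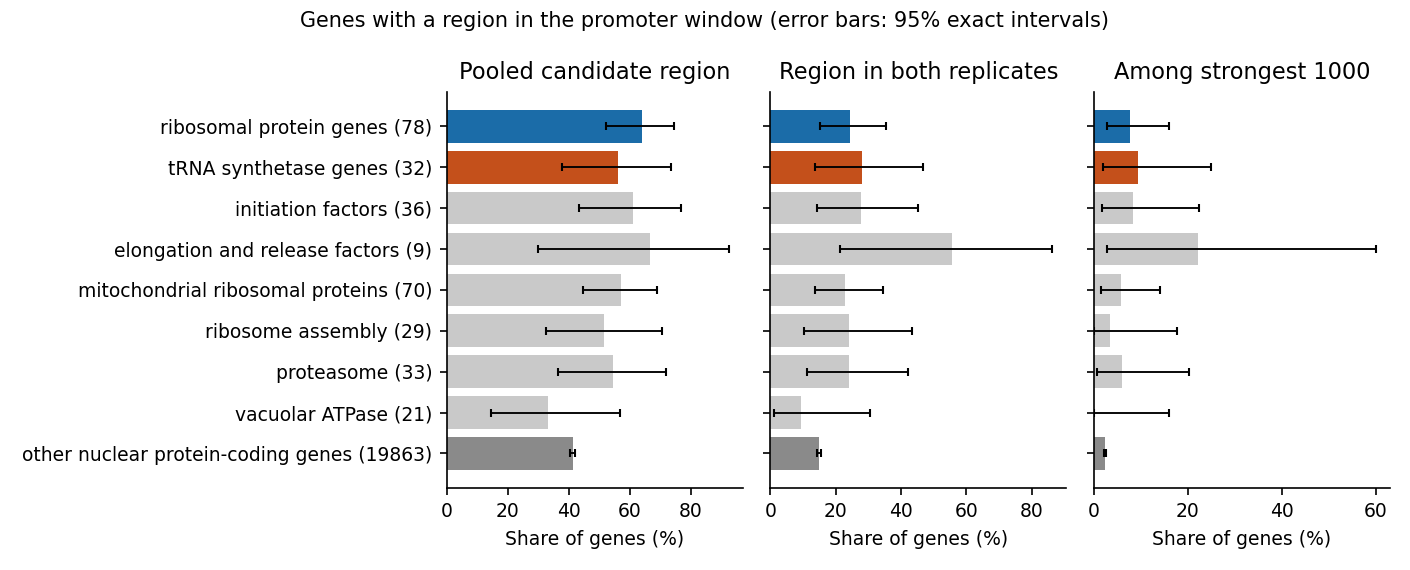
Share of genes in percent (x axis) with a pooled candidate region, with regions of both replicates within 100 bp, and with a region among the strongest 1000 pooled, for the members and for lists of other genes, with the number of genes in brackets and 95% exact binomial intervals. The list of other ribosome parts is not drawn. The ribosomal protein and synthetase bars lie above the bar of the other nuclear protein-coding genes in each panel, and their intervals overlap those of the initiation factors, the mitochondrial ribosome and the proteasome.

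The window reaches much further upstream than downstream, so most counted summits had to lie upstream. The strongest region of a ribosomal protein gene had its summit a median of 289 bp upstream of the 5' end, and 44 of 50 (88%) lay upstream. For the synthetase genes the median was 126 bp upstream and 13 of 18 (72.2%) lay upstream. For the other genes the median was 331 bp upstream and 83.4% lay upstream. Counted from the outermost 5' end in bins of 200 bp, the ribosomal protein genes had 21.8 pooled regions per 100 genes from 400 to 200 bp upstream and 16.7 in the next bin to the 5' end, beside 7.98 and 8.12 for the other genes. In the first 200 bp downstream it was 8.97 for the ribosomal protein genes, 18.8 for the synthetase genes and 6.89 for the other genes. Ribosomal protein bins more than 1000 bp upstream held from 3.85 to 11.5, beside 5.49 to 6.12 for the other genes. Beyond 200 bp downstream they held from 3.85 to 11.5, beside 5.53 to 5.95. Some bins away from the start were thus also above those of the other genes, and some were below. Each synthetase bin holds at most 6 regions.

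**Figure D4:**
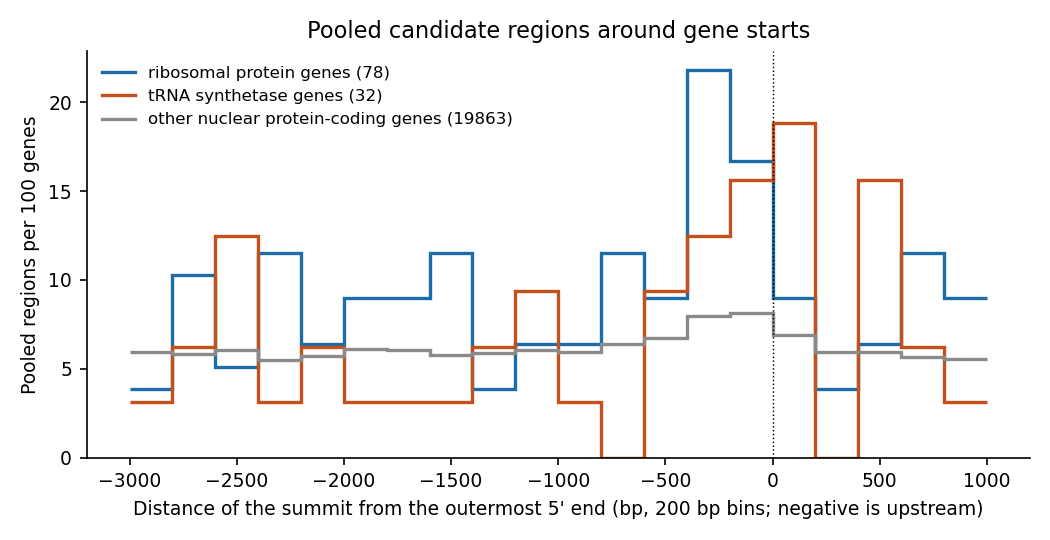
Pooled candidate regions per 100 genes (y axis) by the distance of the summit from the outermost annotated 5' end (x axis, bins of 200 bp from 3000 bp upstream to 1000 bp downstream) for ribosomal protein, synthetase and other genes. The ribosomal protein line peaks at 21.8 between 400 and 200 bp upstream, the synthetase line at 18.8 just downstream of the 5' end, and the line of the other genes stays between 5.49 and 8.12. More than 1000 bp upstream the ribosomal protein line varies between 3.85 and 11.5.

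The ribosomal protein genes stood in crowded places, which bears on how a region is given to a gene. The strongest region lay in the window of another protein-coding gene too for 34 of 50 ribosomal protein genes (68%) and for 8 of 18 synthetase genes (44.4%), beside 23.7% of other genes with a region. The nearest 5' end belonged to the gene itself in 36 of the 50 (72%) and in 15 of the 18 (83.3%), beside 83.5% of other genes. Besides pab-1 at rpl-30, nearer starts included those of rab-11.1, a small GTPase gene, at rpl-7, of ify-1, the securin gene, at rpl-22, and of ctr-9, a gene of the PAF1 transcription elongation complex, at dars-1. In 3 cases a single region was shared by a pair of ribosomal protein genes. These were rpl-39 with rps-30 (signal 32.7), rpl-24.1 with rps-10 (26.4) and rpl-36 with rps-14 (26). The part of neighbouring genes in the signals was not tested. With each region given only to its nearest 5' end, 37 ribosomal protein genes (47.4%) and 16 synthetase genes (50%) had a pooled region, beside 35.3% of the other genes.

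Few of the strongest regions had a summit near a gene of a short RNA (tRNA, snoRNA, snRNA or rRNA), at members as at other genes. Among the strongest regions of the members, that of rps-12, at a signal of 26.4, was the only one with its summit within 200 bp of such a gene (the snoRNA gene F54E7.10), which makes 1 of 50 ribosomal protein genes (2%) and 0 of 18 synthetase genes, beside 1.46% of other genes. A weaker pooled region of rps-26 (signal 34.8, 700 bp upstream) also lay near a snoRNA gene, F39B2.14, and so did a replicate 2 region of rpl-26 (signal 20.7, snoRNA gene F28C6.11), which had no pooled region. Without regions near short RNA genes, 4 ribosomal protein genes and 1 synthetase gene still had an IDR peak, beside 0.649% of other genes.

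The DNA at the regions was a little richer in G and C than at other promoters. The median within 100 bp of the summit was 38.8% over the 55 different regions at ribosomal protein genes and 36.6% over the 26 at synthetase genes, beside 34.8% over 8885 other promoter regions. The 5 regions under the IDR peaks were all above these medians, from 43.8% at rps-28 to 46.8% at rpl-30. The medians cover regions of any strength, and the strong regions of other genes were not measured separately. The word GCGCAC was in 6 of 55 ribosomal protein regions (10.9%, interval 4.11 to 22.2) and 2 of 26 synthetase regions (7.69%), beside 4.01% of other promoter regions. CGCACA was in 7 of 55 (12.7%, interval 5.27 to 24.5) and 1 of 26 (3.85%), beside 4.97%. CCGCCC was in 2 of 55 (3.64%) and 0 of 26 (which allows up to 11.5%), beside 4.5%. The words overlap in part, and with counts this low the shares at these genes are loosely known. Of the words that match the B box of tRNA genes, CGAACC was in 2 of 55 and 2 of 26 regions (3.64% and 7.69%, beside 3.32%), and GTTCGA in 3 of 55 and 0 of 26 (5.45% of the ribosomal protein regions, beside 7.05%). The GATA-factor word TGATAA was in 13 of 55 (23.6%, interval 13.2 to 37) and 3 of 26 (11.5%), beside 18.2%. ACAGTAGC, known as a binding word of the Odd-skipped family in flies, was in 0 of 81 regions (which allows a share of up to 3.7%), beside 0.326% of other promoter regions. Words were searched on both strands, and a match is a string of letters and not a site of binding.

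No pooled region lay in the window of 28 ribosomal protein genes and 14 synthetase genes. The ribosomal protein genes without one included rpl-1, rpl-4, rpl-10, rps-1, rps-3 and rps-5, each of which had a region in a replicate. They also included rpl-13, rpl-16 and rps-13, which had no region in either replicate. The synthetase genes without one were aars-1, dars-2, fars-2, fars-3, iars-1, kars-1, nars-1, nars-2, rars-1, rars-2, sars-1, sars-2, vars-1 and yars-1. In none of the 3 candidate files did 14 ribosomal protein genes (17.9%) and 7 synthetase genes (21.9%) have a region, beside 40.8% of other genes. A gene without a region may still have had reads there that the authors did not list among the 30000 of a file.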

How the data were processed

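ChIP-seq of GFP-tagged ODD-2 was deposited for 2 replicates of late embryos. The signal per region, column 7 of the deposited ce11 narrowPeak files, was made by the authors from alignments and a control file, as the deposited lists of files state. The sources used here name no aligner or peak caller. The pooled and IDR regions were derived by the authors from both replicates. Files of build ce10 were not used here, because the annotation used is on ce11.

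Summits were placed on Ensembl release 115 (WBcel235), whose chromosomes and those of the RefSeq genome hold every deposited region. Sequences and product names came from RefSeq (WBcel235). Any 5' end of a protein-coding transcript counted, so a region can count for several genes. Shares carry exact binomial 95% intervals, and a count of 0 allows 3 counts of the total. No test between groups exists with 1 group. The window search was tested on planted summits. Python 3.11.15, numpy 2.4.6, pandas 2.3.3, scipy 1.17.1 and matplotlib 3.10.9 were used.

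The members, words and other gene lists (given by gene name) were chosen with earlier results of these data known. Named were the members with an IDR peak, the 10 strongest of each group by pooled signal, the 5 next, and for the other lists the 2 strongest genes; pairs sharing a region, neighbours and genes without a region were named after their values were seen. Alternatives were other windows, the outermost 5' end, the nearest 5' end, each replicate alone, other summit distances, other strength limits, and regions away from short RNA genes.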

Additional observations from a re-analysis of the deposited data

How the results depend on the processing

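Of 70 recomputed values, 59 stayed within 1.5 times the reported count (or, for words, within its interval) and 11 did not; the cause was not tested. Ribosomal protein genes with a region in both replicates numbered 29 (37.2%, beside 24.7% of other genes) with the window of 2000 bp upstream to 500 bp downstream and 12 (15.4%, beside 12.3%) with only the nearest 5' end, against 19. Synthetase genes numbered 5 (15.6%, beside 8.91%) with the window of 500 bp upstream to 100 bp downstream, against 9. Ribosomal protein genes among the strongest 1000 regions numbered 3 with the nearest 5' end (3.85%, beside 1.85%) and 11 among the strongest 3000 (14.1%, beside 6.06%), against 6. Synthetase genes there numbered 1 (3.12%, beside 2.05%) with the outermost 5' end, which leaves out tars-1 and gars-1, against 3. Among the stronger 130 IDR peaks, 2 ribosomal protein genes had one (2.56%, beside 0.413%), against 4. GCGCAC was in 3.7% of member regions within 50 bp of the summit, against 9.88% within 100 bp, and CCGCCC in 0%, against 2.47%; in other promoter regions GCGCAC was in 2.06%, against 4.01%, and CCGCCC in 2.32%, against 4.5%. With 1 replicate left out, ribosomal protein genes with a region numbered 40 to 53 and those among the strongest 1000 numbered 3 to 9; synthetase genes numbered 18 to 19 and 1 to 3. With the narrow window 38 ribosomal protein genes (48.7%) and 15 synthetase genes (46.9%) had a pooled region, beside 26.2% of other genes, and with the wide one 60 (76.9%) and 21 (65.6%), beside 61.5%. No paired analysis was possible because there is 1 group. Read depth is unknown, and only the listed regions could be counted.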

Other observations

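The share of these genes with a region varied between chromosomes, on small numbers. The pooled file had a region at 22 of 32 ribosomal protein and synthetase genes on chromosome I (68.8%, beside 45.2% of other genes there), 6 of 15 on II (40%, beside 41%), 14 of 24 on III (58.3%, beside 48%), 17 of 25 on IV (68%, beside 40.2%), 7 of 12 on V (58.3%, beside 36.3%) and 2 of 2 on X (100%, beside 41.4%). The genes on X were rpl-11.2 and rpl-25.1, each with a paralogue of the same number on another chromosome. At rpl-25.1 the summit lay 15 bp upstream of the 5' end (signal 35.7), and at rpl-25.2 it lay 559 bp upstream (45.5). At rpl-11.2 it lay 980 bp upstream (39), and at rpl-11.1 959 bp upstream (50.4). The 5' end nearest to the rpl-25.2 summit was that of C34B7.1, at 244 bp. For the rpl-11.1 summit it was that of T22F3.2, at 384 bp. At rpl-25.1 and rpl-11.2 the nearest 5' end was that of the gene itself. The sources used here do not say how reads shared by such paralogues were placed.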
